A study of Mus musculus with 12 samples.

Results

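The LIF receptor and Stat3 pathway is followed here through 9 of its genes, Lifr, Osmr, Il6st, Jak1, Stat3, Socs2, Socs3, Pim1 and Pim3, in mouse embryonic stem cells that lack or carry Tcf3 and that did or did not receive Wnt3a. In this pathway the cytokine LIF joins its receptor chain Lifr to the shared chain gp130, encoded by Il6st, and Jak kinases bound to these chains phosphorylate the transcription factor Stat3. Stat3 then enters the nucleus and induces target genes, among them the feedback inhibitor Socs3 and the Pim kinases. In mouse embryonic stem cells cultured in serum, LIF acting through Stat3 is known to support self-renewal.

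The members were all probe sets annotated to a single one of these 9 symbols. They came to 31 of the 45101 probe sets on the array, and the 9 genes are 9 of the 18193 genes with a probe set of their own. Of the 31 probe sets, 27 passed a filter on dim signal and were tested. Left out were all 3 of Osmr and the dimmest of the 6 of Socs2, so 8 genes had a test. Within a gene, probe sets are numbered from the brightest by their mean over all arrays, and probe set 1 gives the level of the gene.

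The 4 groups, of 3 arrays each and 12 in all, were compared on an Affymetrix expression array. They were Tcf3-/- cells (knockout) with Wnt3a, Tcf3+/+ cells (wild type) with Wnt3a, knockout cells in control medium and wild-type cells in control medium. Tcf3 is the older name of Tcf7l1, a Tcf/Lef family protein that binds beta-catenin, and recombinant Wnt3a, a ligand that stabilises beta-catenin, was present at 50 ng/ml for 24 h. All groups shared a feeder-free culture on gelatin with 15% fetal bovine serum and 1000 U/ml Lif, so the ligand was supplied from outside in every group. The sources used here do not say how the knockout was made, how many clones it represents or whether replicates were separate cultures. The p-values therefore cover the spread among the arrays only, and that spread may be technical.

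Levels are given as log2 of the deposited intensity, with n = 3 arrays in each group. A change is the difference between 2 group means, given with its standard error (SE) from limma. Each p is limma's after Benjamini-Hochberg adjustment for the 28483 probe sets tested, and a probe set counts as changed where it is under 0.05. The median SE of a difference was 0.093. An intensity below 5.56 (log2), the 40th percentile of all values, is treated as not above the floor.

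Some features of the arrays moved with the groups. The targeted gene Tcf7l1 averaged 9.47 in knockout against 10.85 in wild-type control arrays, and 9.10 in knockout against 10.37 in wild-type Wnt3a arrays. Signal thus remained in the knockout, and no source used here names the deleted part. All 12 embryonic stem cell markers lay above the floor in every group, and their summed intensity was 124200 to 127200 in knockout and 89930 to 101000 in wild-type control arrays, and 130000 to 136600 in knockout and 109000 to 117400 in wild-type Wnt3a arrays. Trophectoderm markers summed to 2239 to 2372 in knockout and 2985 to 3617 in wild-type control arrays. With Wnt3a they summed to 1951 to 2176 in knockout and 3156 to 3213 in wild-type arrays, with Elf5 below the floor everywhere. Of 7 tested, 4 were lower and 0 higher in knockout cells in control medium, and 4 lower and 1 higher with Wnt3a. Over all genes tested, 21.5% were lower and 19% higher in control medium, and 13.9% and 12.4% with Wnt3a. In knockout cells the mean of Gata3 lay below the floor in control medium (5.11) and with Wnt3a (5.01). Krt7 averaged 6.06 in knockout and 9.36 in wild-type controls, while Eomes ran the other way (8.12 and 7.73). Feeder markers summed to 1531 to 1663 in knockout and 1154 to 1275 in wild-type control arrays, and to 1452 to 1487 in knockout and 1459 to 1650 in wild-type Wnt3a arrays, with Col3a1 and Lum below the floor everywhere. Of 8 feeder markers tested in control medium, 3 were higher and 3 lower in knockout cells, against 19% and 21.5% of all genes. Their median change was -0.23. The brightest, Fbln1, was higher (9.97 in knockout and 9.12 in wild-type cells), while Col1a1 and Col1a2 were lower, by 0.68 and 0.65. In knockout controls the means of Col1a1 (5.32) and Twist2 (5.46) lay below the floor, so the size given for Col1a1 rests on background. With Wnt3a 1 of the 8 markers was higher and 2 were lower in knockout cells, against 12.4% and 13.9% of all genes, with a median of -0.15. Endoderm markers summed to 929.3 to 3466 in knockout and 1103 to 1309 in wild-type control arrays. With Wnt3a they summed to 1845 to 2085 in knockout and 1403 to 1748 in wild-type arrays. Afp lay below the floor in every group, and Sox17 just below it in wild-type controls (5.55). The value of 3466 came from replicate 2 of the knockout in control medium alone. The 3' minus 5' signal of actin, a sign of RNA quality, was 0.35 in knockout against 0.21 in wild-type control arrays. With Wnt3a it was 0.38 in knockout against 0.26 in wild-type arrays, and the genotypes did not overlap in either medium. The same measure for Gapdh was 0.02 in knockout against 0.01 in wild-type control arrays, and -0.06 against -0.09 with Wnt3a. For Gapdh the genotypes overlapped in both media. The spike-in transcript dap averaged 10.88 and 11.02 on knockout and wild-type Wnt3a arrays, against 4.27 and 4.23 on the control arrays of these genotypes. The array controls BioB, BioC and cre also differed between media. On knockout and wild-type Wnt3a arrays BioB averaged 8.76 and 8.58, against 6.26 and 6.05 on their control arrays. BioC averaged 10.14 and 9.90 against 7.67 and 7.35, and cre 13.93 and 13.87 against 12.30 and 12.09. Medium cannot be told apart from the preparation of samples and arrays, and each Wnt3a effect below includes all of these. The part of the other differences in the results below was not tested.

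**Figure D1:**
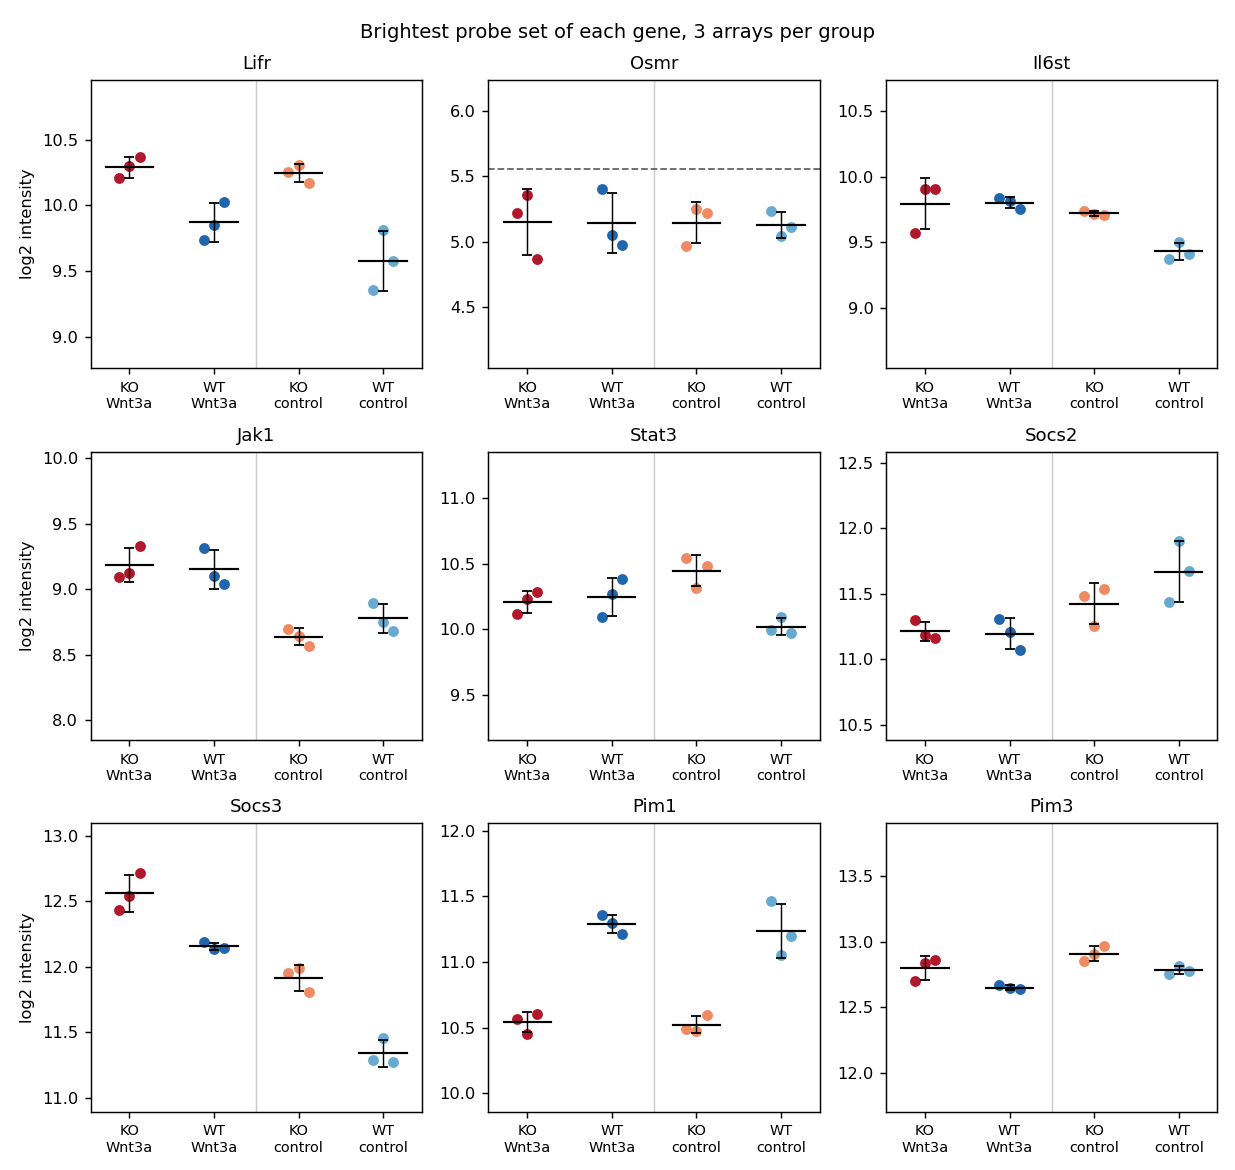
Log2 intensity of the brightest probe set of each of the 9 genes (vertical axis, spanning the same number of log2 units in every panel) on each array, for knockout (KO) and wild-type (WT) cells with Wnt3a and in control medium. Points are arrays, horizontal lines are group means, bars are SD (n = 3), and the dashed line at 5.56 is the floor. Both knockout groups of Pim1 lie below both wild-type groups, the 4 groups of Socs3 do not overlap, and Osmr stays under the floor.

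Loss of Tcf3 in control medium went with higher signal for both chains of the LIF receptor, for Stat3 and for Socs3, and with lower signal for the kinase Pim1. Of the 27 probe sets, 14 were higher, 2 were lower and 11 did not pass. Over all probe sets tested, 18% were higher and 18.2% lower. The median change was 0.29 over the 27 and 0.03 over all. By the brightest probe set, 4 of the 8 genes were higher (Lifr, Il6st, Stat3 and Socs3) and Pim1 was lower, against 19% higher and 21.5% lower over the 13811 genes tested. In a bulk sample, fewer cells of a type and less RNA per cell cannot be told apart. With single arrays left out, 13 to 16 probe sets and 4 to 5 genes were called. Without replicate 1 of the knockout there were 13 and 4, and Il6st probe sets 1 and 3 and Stat3 probe set 4 lost their calls.

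With Wnt3a in the medium of both genotypes, Lifr and Socs3 were again higher and Pim1 again lower in knockout cells. In these cells 8 of the 27 probe sets were higher and 3 lower than in wild-type cells, while 10.8% and 13.2% of all probe sets tested were. The median change was 0.03 over the 27 and 0.00 over all. By the brightest probe set 2 genes were higher and 1 was lower, against 12.4% and 13.9% of all genes. The 11 called probe sets became 7 without replicate 1 of the wild-type Wnt3a group, and likewise 7 without replicate 3 of the knockout Wnt3a group.

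**Figure D2:**
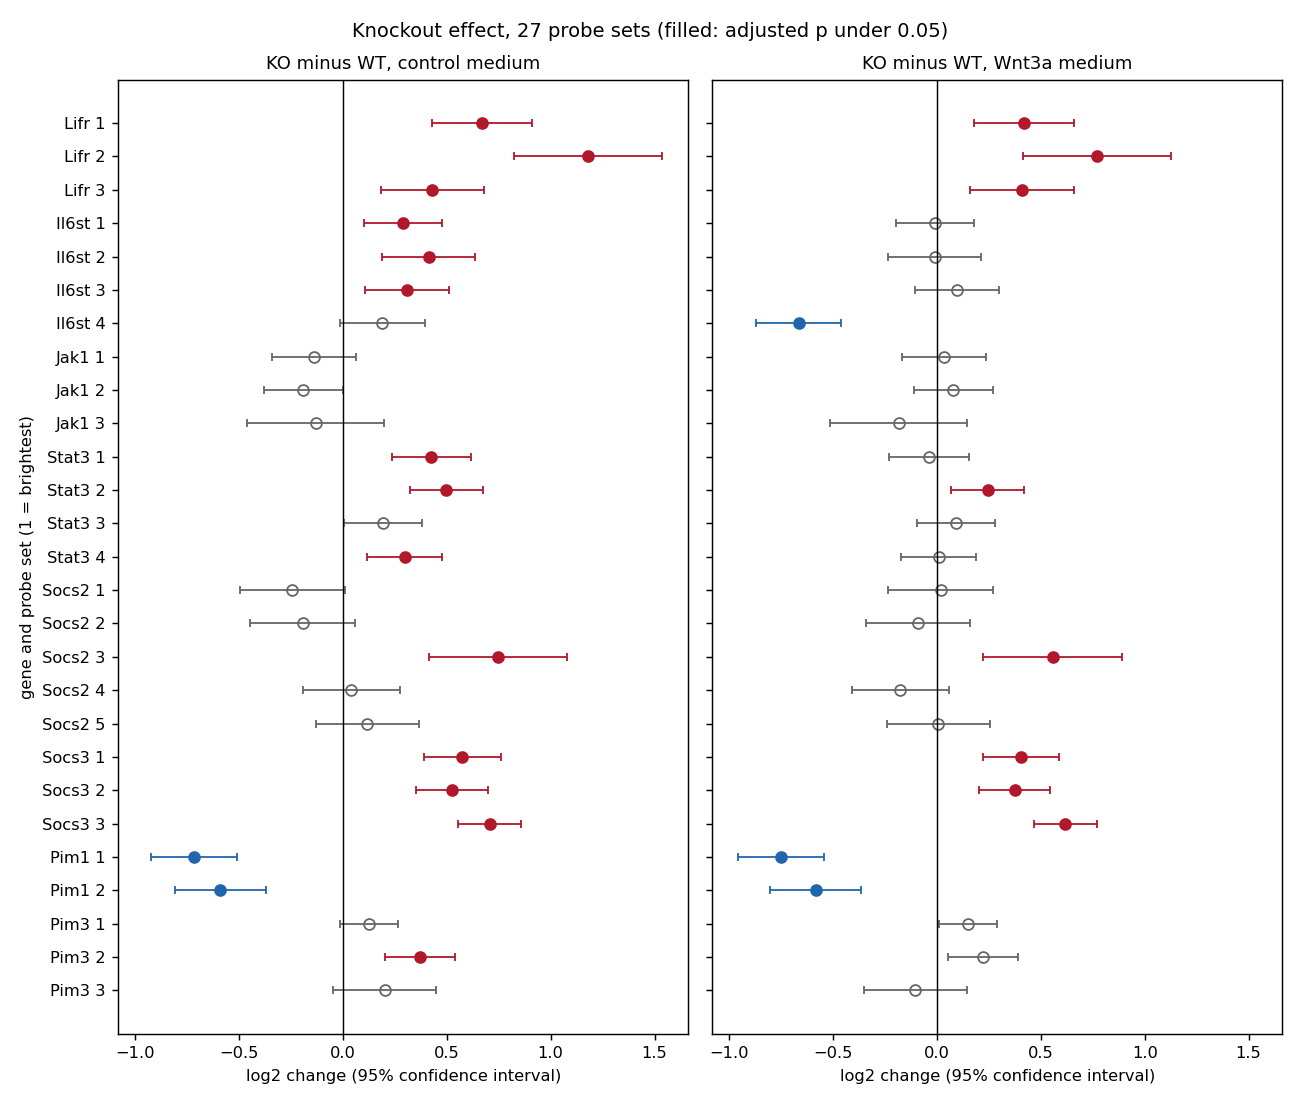
Knockout minus wild type on the log2 scale (horizontal axis) for the 27 tested probe sets of the members (vertical axis), in control medium (left) and with Wnt3a (right). Points are differences of group means, bars are 95% confidence intervals of the limma fit, red is higher and blue lower at an adjusted p under 0.05. In control medium 16 probe sets are filled, and with Wnt3a 11.

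Lifr encodes the chain that binds LIF. In control medium probe set 1 (1454984_at) read 10.26, 10.31 and 10.17 on the knockout arrays, against 9.35, 9.81 and 9.57 on the wild-type arrays. The groups did not overlap, and the change was 0.67 ± 0.11, a 1.59-fold difference (adjusted p = 0.000463). Probe set 2 (1425107_a_at) read 7.91, 7.63 and 7.50 in knockout cells, against 6.35, 6.58 and 6.56 in wild-type cells. This was the largest change of any member in control medium, 1.18 ± 0.16 or 2.27-fold (adjusted p = 0.000129). The dim probe set 3 (1450207_at) averaged 7.03 in knockout and 6.60 in wild-type cells, a change of 0.43 (adjusted p = 0.0105, or 0.0510 without replicate 3 of the knockout).

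Lifr was also higher in knockout cells when both genotypes had Wnt3a. Probe set 1 then read 10.21, 10.30 and 10.37 in knockout cells, against 9.73, 9.85 and 10.03 in wild-type cells, a change of 0.42 ± 0.11 (adjusted p = 0.0161). Its adjusted p was 0.0651 without replicate 1 of the wild type and 0.0528 without replicate 3 of the knockout. Probe set 2 changed by 0.77 ± 0.16 (adjusted p = 0.00506) and passed under every alternative run. Probe set 3 changed by 0.41 (adjusted p = 0.0222) and missed the threshold when any 1 of 4 arrays was left out (replicates 1 and 2 of the wild type, 2 and 3 of the knockout), with adjusted p up to 0.0753.

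The response of Lifr to Wnt3a was small. In knockout cells none of the 3 probe sets passed, with changes of 0.04, -0.28 and -0.14. In wild-type cells probe set 1 changed by 0.29 ± 0.11 (adjusted p = 0.0483) with overlapping arrays, and probe sets 2 and 3 by 0.13 and -0.12. That call was lost under 14 of the 22 alternatives run, 10 of them leaving out a single array. These were replicates 1 and 3 of the wild-type controls (0.197 and 0.107), replicates 2 and 3 of the wild type with Wnt3a (0.0897 and 0.172) and each of the 6 knockout arrays (0.0505 to 0.0626). The difference between genotypes in the Wnt3a response of probe set 1 was -0.25, with a 95% confidence interval of -0.59 to 0.09. In the order of its means ± SD, Lifr was highest in knockout cells with Wnt3a (10.29 ± 0.08) and in control medium (10.25 ± 0.07), whose arrays overlapped. Wild-type cells with Wnt3a (9.87 ± 0.15) and in control medium (9.58 ± 0.23) followed, and their arrays overlapped too.

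Osmr encodes the receptor chain that pairs with gp130 to bind oncostatin M. Its brightest probe set (1418675_at) read 5.22, 5.36 and 4.87 in knockout cells with Wnt3a, 5.40, 5.05 and 4.97 in wild-type cells with Wnt3a, 4.97, 5.25 and 5.22 in knockout controls and 5.23, 5.04 and 5.11 in wild-type controls. Every array lay below the floor of 5.56, as did every value of the other 2 probe sets (4.08 to 4.93). No level and no fold is given for it.

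Il6st encodes gp130, the signal-transducing chain shared by the LIF, interleukin 6 and oncostatin M receptors. In control medium probe set 1 (1452843_at) read 9.74, 9.71 and 9.71 in knockout cells, against 9.37, 9.51 and 9.41 in wild-type cells. The groups did not overlap and the change was 0.29 ± 0.09, or 1.22-fold (adjusted p = 0.0200). Probe sets 2 and 3 were higher by 0.41 (adjusted p = 0.00714) and 0.31 (adjusted p = 0.0200), and probe set 4 differed by 0.19 (adjusted p = 0.142). Leaving out 1 array raised the adjusted p of probe set 1 to 0.0692 (replicate 1 of the wild type), 0.0624 (replicate 3 of the wild type) or 0.0565 (replicate 1 of the knockout). The same 3 arrays, and replicate 3 of the knockout, each took probe set 3 past the threshold, to adjusted p between 0.0610 and 0.0716, and without replicate 3 of the knockout probe set 4 passed (0.0399).

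With Wnt3a, Il6st rose in wild-type cells on all 4 probe sets, by 0.37, 1.05, 0.68 and 1.13 (adjusted p = 0.00472, 1.32e-05, 1.54e-04 and 3.90e-06). Probe set 2 (1460295_s_at) read 8.36, 8.06 and 8.38 with Wnt3a, against 7.13, 7.33 and 7.19 in control medium, a 2.07-fold difference. In knockout cells it read 8.13, 8.39 and 8.25 with Wnt3a, against 7.74, 7.64 and 7.51 in control medium, a change of 0.63 (adjusted p = 0.00101). Probe set 3 rose by 0.46 (adjusted p = 0.00329) in knockout cells, and probe set 1 differed by 0.07 (adjusted p = 0.560). By probe set 1 the knockout (9.79 ± 0.19, SD) and wild-type (9.80 ± 0.04) Wnt3a groups overlapped each other, the knockout controls (9.72 ± 0.02) lay within the range of the knockout Wnt3a arrays, and the wild-type controls were lowest (9.43 ± 0.07).

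Probe set 4 of Il6st (1437303_at) was the one member probe set whose difference in Wnt3a response between genotypes passed the threshold. It read 7.56, 7.62 and 7.48 in knockout cells with Wnt3a, against 8.40, 8.11 and 8.15 in wild-type cells with Wnt3a, and 7.34, 7.39 and 7.10 in knockout controls, against 7.13, 7.09 and 7.04 in wild-type controls. The 3 wild-type Wnt3a arrays stood above all others. Its Wnt3a response was 0.28 in knockout cells (adjusted p = 0.0408) and 1.13 in wild-type cells, an interaction of -0.86 ± 0.13 (adjusted p = 0.00932). Over all probe sets tested 3.58% had a called interaction, and of the 27 members 1 did, a similar share. With Wnt3a it was lower in knockout cells by 0.67 (adjusted p = 3.99e-04), where probe sets 1, 2 and 3 differed by -0.01, -0.01 and 0.10. The interactions of those 3 were -0.30, -0.42 and -0.21, with adjusted p of 0.194, 0.127 and 0.398. The response in knockout cells missed the threshold under 7 alternatives, with adjusted p up to 0.174 without replicate 3 of the knockout in control medium; replicate 1 of it, replicates 2 and 3 of the wild-type controls and replicates 1 and 2 of the knockout with Wnt3a also ended that call, at 0.0510 to 0.128.

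**Figure D3:**
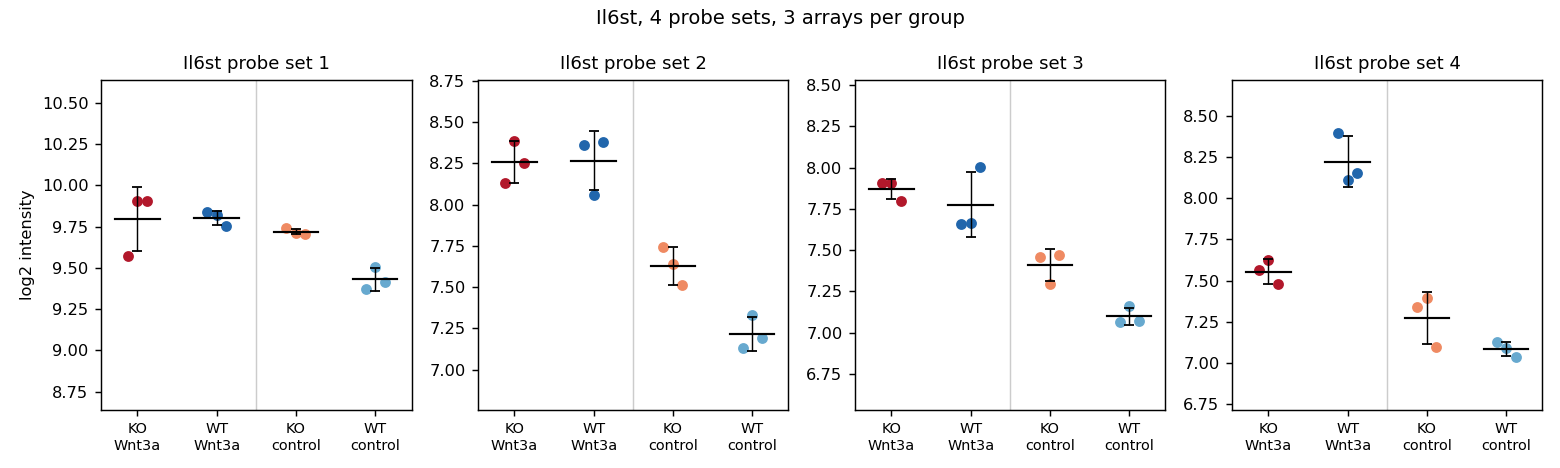
Log2 intensity (vertical axis) of the 4 Il6st probe sets on each array, by genotype and medium. Points are arrays, lines are group means and bars are SD (n = 3). On probe set 4 the wild-type Wnt3a arrays (8.11 to 8.40) lie above the knockout Wnt3a arrays (7.48 to 7.62), while on probe sets 1 to 3 these groups overlap.

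Jak1 encodes a kinase bound to gp130. It did not pass in either comparison of genotypes. In control medium probe set 1 (1433805_at) read 8.70, 8.64 and 8.57 in knockout cells, against 8.89, 8.75 and 8.68 in wild-type cells, which overlap, and changed by -0.14 ± 0.09 (adjusted p = 0.278, 95% confidence interval -0.34 to 0.06). With Wnt3a the change was 0.03 (-0.17 to 0.23).

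Jak1 was higher with Wnt3a in both genotypes, on 2 of its 3 probe sets. Probe set 1 read 9.10, 9.13 and 9.33 with Wnt3a in knockout cells and 9.31, 9.10 and 9.04 with Wnt3a in wild-type cells. Against the control arrays above this was a change of 0.55 ± 0.09 in knockout cells (adjusted p = 0.00118) and of 0.37 ± 0.09 in wild-type cells (adjusted p = 0.00651). The dim probe set 3 (1433804_at) was also higher. It read 6.82, 6.89 and 7.06 with Wnt3a against 5.82, 5.54 and 5.51 in control medium in knockout cells, a 2.47-fold difference (adjusted p = 1.08e-04), and 7.46, 6.74 and 7.12 with Wnt3a against 5.70, 5.69 and 5.87 in control medium in wild-type cells, a 2.56-fold difference (adjusted p = 3.48e-05). The control arrays lay near the floor of 5.56, with 2 of the 3 knockout controls below it, so the size of both folds rests on a signal near background. Probe set 2 (1433803_at) did not follow, with changes of 0.15 (adjusted p = 0.228) in knockout cells and -0.12 (adjusted p = 0.274) in wild-type cells. The calls of probe sets 1 and 3 held in both genotypes under every alternative run.

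Stat3, the transcription factor of the pathway, was higher in knockout cells in control medium on 3 of 4 probe sets. Probe set 1 (1426587_a_at) read 10.54, 10.31 and 10.48 in knockout cells, against 10.00, 10.09 and 9.97 in wild-type cells, with no overlap and a change of 0.43 ± 0.09, or 1.34-fold (adjusted p = 0.00219). Probe set 2 (1460700_at) read 9.96, 9.80 and 10.01 in knockout cells, against 9.37, 9.51 and 9.40 in wild-type cells, a 1.41-fold difference (adjusted p = 4.44e-04). The dim probe set 4 was higher by 0.30 (adjusted p = 0.0135, lost at a value just over the threshold without replicate 2 of the wild type, and at 0.0545 without replicate 1 of the knockout), and probe set 3 differed by 0.19 (adjusted p = 0.106).

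With Wnt3a the genotypes lay closer together for Stat3. Probe set 1 read 10.12, 10.23 and 10.28 in knockout cells, against 10.09, 10.27 and 10.38 in wild-type cells, overlapping, with a change of -0.04 (adjusted p = 0.805, 95% confidence interval -0.23 to 0.15). Probe set 2 differed by 0.24 (adjusted p = 0.0471), a call that 13 of 20 alternatives ended, 9 of them leaving out a single array. Those were replicates 1 and 3 of both groups in control medium (0.0527 to 0.0670), replicates 1 and 2 of the wild type with Wnt3a (0.172 and 0.0826) and all replicates of the knockout with Wnt3a (0.0642 to 0.122). The Wnt3a response of probe set 1 was -0.24 in knockout cells (adjusted p = 0.0585) and 0.23 in wild-type cells (adjusted p = 0.0550).

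The difference between those responses was -0.46 ± 0.12 with a 95% confidence interval of -0.73 to -0.19 and an adjusted p of 0.0623. It passed with replicate 1 of the wild-type Wnt3a group left out (0.0255), after repeated quantile normalization (0.046) or with an intensity trend (0.0372). The response in knockout cells passed without replicate 2 of the knockout controls (0.0324). Leaving out replicate 1 or 3 of the wild type with Wnt3a had the same result (0.0382 and 0.0467). The knockout response also passed for the mean of all probe sets (0.0088), after repeated quantile normalization (0.013) or with an intensity trend (0.0429). The response in wild-type cells passed without replicate 1 of the wild type with Wnt3a (0.0174) or replicate 2 of the knockout controls (0.0456). The wild-type response also passed with a stricter filter (0.0485), median centring (0.0199) or an intensity trend (0.0410). Probe set 4 fell by 0.33 with Wnt3a in knockout cells (adjusted p = 0.0103). In the order of probe set 1, knockout controls had the highest mean (10.45) and overlapped the wild-type Wnt3a arrays (10.25), which overlapped the knockout Wnt3a arrays (10.21). Wild-type controls were lowest (10.02) and also overlapped the wild-type Wnt3a arrays.

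Socs3 encodes an inhibitor that binds gp130 and Jak kinases and closes the feedback loop of the pathway, and its 3 probe sets passed in all 4 pairwise comparisons. In control medium probe set 1 (1455899_x_at) read 11.95, 11.99 and 11.81 in knockout cells, against 11.29, 11.46 and 11.28 in wild-type cells. With Wnt3a it read 12.43, 12.54 and 12.71 in knockout cells, against 12.19, 12.14 and 12.14 in wild-type cells. The 4 groups did not overlap, from knockout with Wnt3a at the top through wild type with Wnt3a and knockout control down to wild-type control. The knockout effect was 0.58 ± 0.08 in control medium (adjusted p = 2.06e-04) and 0.40 ± 0.08 with Wnt3a (adjusted p = 0.00470). The Wnt3a effect was 0.64 ± 0.08 in knockout cells (adjusted p = 2.41e-04) and 0.81 ± 0.08 in wild-type cells (adjusted p = 2.06e-05).

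The other 2 probe sets of Socs3 moved in the same directions. Probe set 3 (1416576_at) read 10.65, 10.62 and 10.52 in knockout controls against 9.79, 9.92 and 9.96 in wild-type controls, a 1.63-fold difference, and 11.16, 11.14 and 11.26 in knockout Wnt3a arrays against 10.61, 10.50 and 10.59 in wild-type Wnt3a arrays, a 1.53-fold difference. On this probe set the knockout controls and the wild-type Wnt3a arrays overlapped, whereas on probe set 1 they did not. The interactions of the 3 probe sets were -0.17, -0.15 and -0.09, with adjusted p between 0.466 and 0.669. All 12 calls of Socs3 held under every alternative run. Probe sets whose names end in _x_at can share sequence with other transcripts, which holds for probe sets 1 and 2 but not for 3.

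Socs2, a related inhibitor best known for damping growth hormone signalling, fell with Wnt3a. Probe set 5 (1442586_at) read 6.61, 6.65 and 6.32 with Wnt3a against 7.58, 7.50 and 7.61 in control medium in knockout cells, a change of -1.04 ± 0.11 (adjusted p = 7.34e-05). In wild-type cells it read 6.66, 6.58 and 6.32 with Wnt3a against 7.33, 7.38 and 7.63 in control medium, a change of -0.93 ± 0.11 (adjusted p = 6.90e-05). In wild-type cells all 5 tested probe sets fell, by 0.47 to 0.93, and the call of probe set 3 (adjusted p = 0.0135) was lost without replicate 2 of the controls (0.0535) or replicate 1 with Wnt3a (0.0532). In knockout cells 4 of 5 fell, by 0.54 to 1.04, and probe set 1 (1449109_at) did not pass. It read 11.30, 11.18 and 11.16 with Wnt3a against 11.49, 11.25 and 11.54 in control medium, which overlap (-0.21, adjusted p = 0.189).

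The probe sets of Socs2 disagreed on the effect of the knockout. In control medium probe set 3 (1438470_at) was higher, with 8.69, 8.40 and 8.52 in knockout cells against 7.60, 7.96 and 7.80 in wild-type cells, a 1.68-fold difference (adjusted p = 0.00214). Probe sets 1 and 2 ran the other way, at -0.24 and -0.19 (adjusted p = 0.127 and 0.231), and both passed as lower without replicate 1 of the wild type (0.0281 and 0.0283). Probe sets 4 and 5 differed by 0.04 and 0.12. With Wnt3a probe set 3 was higher by 0.56 (adjusted p = 0.0201) with overlapping arrays, a call lost without replicate 1 or 2 of the wild type or 2 or 3 of the knockout (0.0604 to 0.0806), and the other 4 differed by -0.18 to 0.02 and did not pass. The mean of all Socs2 probe sets in control medium gave 0.12 in place of -0.24, so the direction for the gene depended on the probe sets used.

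Pim1, a serine/threonine kinase gene induced by Stat3 and other Stat factors, was the member that went down with loss of Tcf3. In control medium probe set 1 (1435458_at) read 10.49, 10.48 and 10.59 in knockout cells, against 11.46, 11.05 and 11.20 in wild-type cells, with no overlap and a change of -0.72 ± 0.10, or 1.64-fold lower (adjusted p = 9.44e-05). With Wnt3a it read 10.57, 10.45 and 10.60 in knockout cells, against 11.36, 11.29 and 11.22 in wild-type cells, a change of -0.75 ± 0.10, or 1.68-fold lower (adjusted p = 1.96e-04). Probe set 2 (1423006_at) fell by 0.59 in control medium (adjusted p = 6.49e-04) and by 0.58 with Wnt3a (adjusted p = 0.00153). All 4 calls held under every alternative run.

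Pim1 did not pass in either response to Wnt3a, and its arrays overlapped between media on probe set 1 in each genotype. Probe set 1 changed by 0.02 ± 0.10 in knockout cells, with a 95% confidence interval of -0.19 to 0.23, and by 0.05 ± 0.10 in wild-type cells (-0.16 to 0.26). Probe set 2 changed by 0.20 and 0.19, with adjusted p of 0.165 and 0.151.

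Pim3, another kinase of that family, changed little on its brightest probe set (1437100_x_at). In control medium it read 12.85, 12.91 and 12.97 in knockout cells, against 12.75, 12.82 and 12.78 in wild-type cells, which did not overlap but differed by 0.13 ± 0.06 (adjusted p = 0.147). Probe set 2 (1451069_at) read 11.35, 11.29 and 11.32 in knockout cells against 11.03, 10.88 and 10.93 in wild-type cells, a 1.29-fold difference that passed (adjusted p = 0.00234). With Wnt3a the knockout differed by 0.15 on probe set 1 (adjusted p = 0.108) and by 0.22 on probe set 2 (adjusted p = 0.0566, which became 0.0305 without replicate 1 of the knockout and 0.0340 without replicate 3 of the wild type). Probe set 1 with Wnt3a likewise passed without replicate 1 of the knockout (0.0463).

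The Wnt3a responses of the Pim3 probe sets ran in opposite directions. Probe set 3 (1438956_x_at), near the floor in control medium, rose by 0.53 in knockout cells (adjusted p = 0.00451) and by 0.84 in wild-type cells (adjusted p = 1.40e-04). Probe set 2 fell by 0.23 in knockout cells (adjusted p = 0.0412), a call that 9 alternatives ended (adjusted p up to 0.148), among them leaving out any knockout control array, replicate 1 or 2 of the knockout with Wnt3a, or replicate 3 of the wild-type controls. Probe set 1 changed by -0.11 in knockout and -0.13 in wild-type cells and did not pass.

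**Figure D4:**
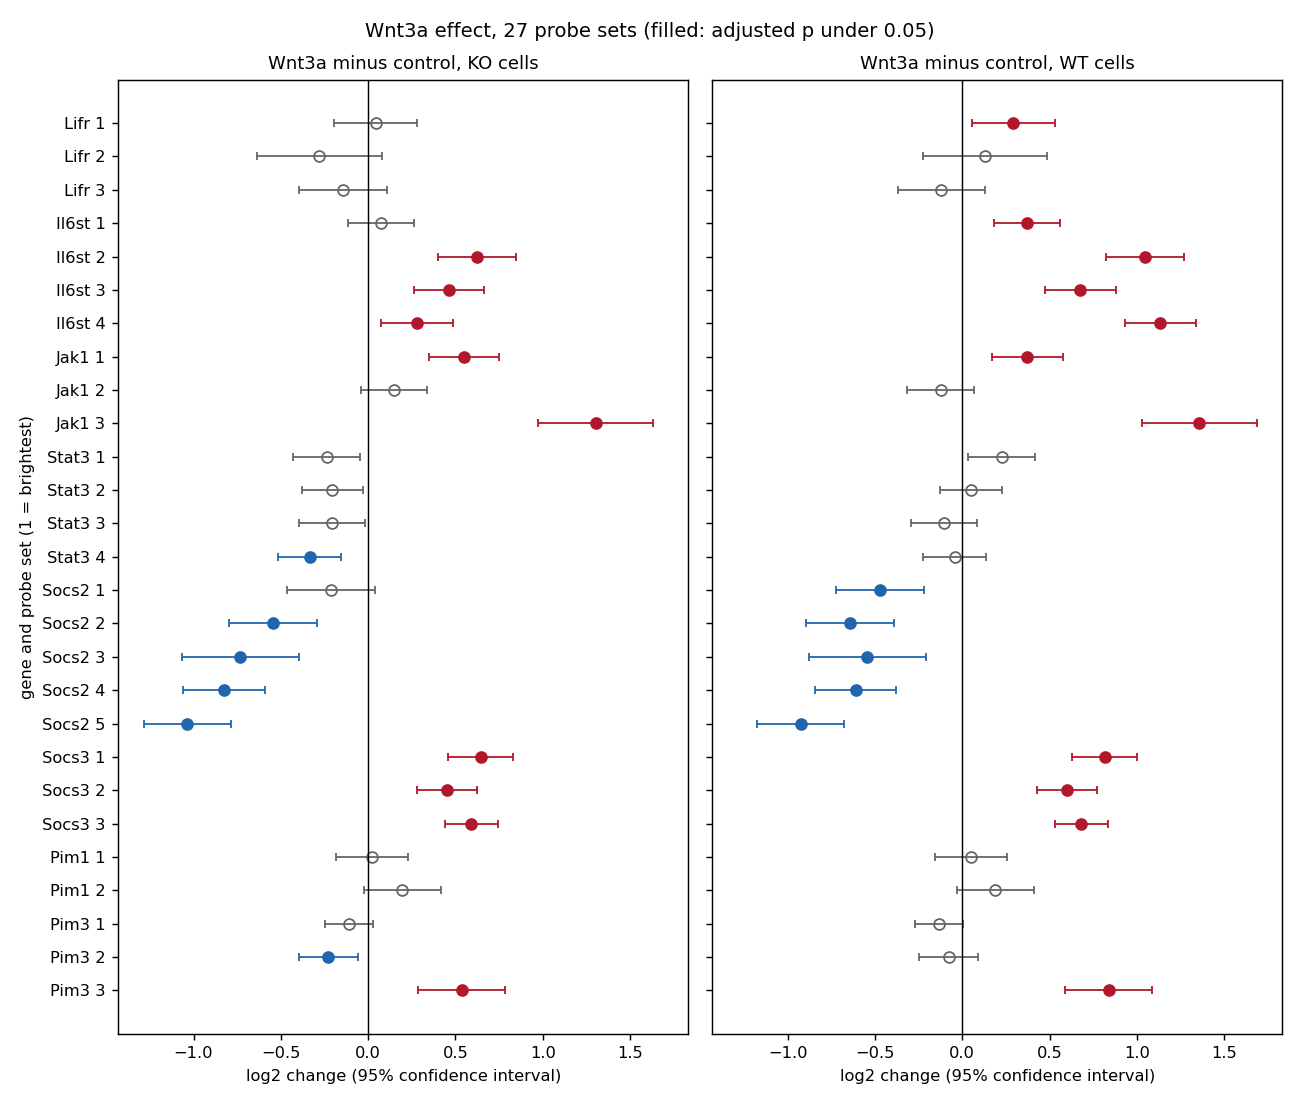
Wnt3a minus control medium on the log2 scale (horizontal axis) for the 27 tested probe sets of the members (vertical axis), in knockout cells (left) and wild-type cells (right). Points are differences of group means, bars are 95% confidence intervals of the limma fit, red is higher and blue lower at an adjusted p under 0.05. Socs3, Il6st and Jak1 lie mainly to the right of 0 and Socs2 to the left.

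Counted over the members, 9 of the 27 probe sets were higher and 6 lower with Wnt3a in knockout cells, against 14.9% and 16% of all probe sets tested. In wild-type cells 11 were higher and 5 lower, against 20.8% and 21.7%. The median change was 0.02 in knockout and 0.13 in wild-type cells over the members, and -0.01 and -0.02 over all. By the brightest probe set, 2 genes (Jak1 and Socs3) were higher and none lower in knockout cells, against 13.4% and 14.9% of all genes. In wild-type cells 4 genes (Lifr, Il6st, Jak1 and Socs3) were higher and Socs2 was lower, against 18.7% and 22.4%. The knockout effect in control medium and the Wnt3a effect in wild-type cells use the same wild-type control arrays. For the brightest probe sets they were 0.67 and 0.29 for Lifr, 0.29 and 0.37 for Il6st, -0.14 and 0.37 for Jak1, 0.43 and 0.23 for Stat3, -0.24 and -0.47 for Socs2, 0.58 and 0.81 for Socs3, -0.72 and 0.05 for Pim1, and 0.13 and -0.13 for Pim3.

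Promoters of the members were searched for letters that Stat and Tcf/Lef factors are known to favour. The RefSeq table (GRCm38.p6) matched 8 of the 9 genes with 10 promoters, each read as the 250 bases before the start of the gene, and Socs2 had no entry. The motifs were TTCNNNGAA, which reads alike on both strands, and CTTTGA and CTTTGT on either strand. None of these overlaps another in the promoters below. The Stat motif stood in the promoter of 1 member, Socs3, as TTCTTAGAA at 146 to 154 bases before the start, and 7.02% of all 32851 promoters held it. CTTTGT stood in Socs3 at 19 to 24 bases and, on the other strand as ACAAAG, in Stat3 at 153 to 158 bases before the start, with 16.5% of all promoters holding it. CTTTGA stood in none of the 10, against 13.8% of all. These matches are descriptions of letters and not measured binding. The sequences of both genes, on chromosome 11 and its minus strand (Socs3 at chr11:117969367-117969616, Stat3 at chr11:100939541-100939790), are shown because they hold all the matches found, with the matches in capitals.
Socs3: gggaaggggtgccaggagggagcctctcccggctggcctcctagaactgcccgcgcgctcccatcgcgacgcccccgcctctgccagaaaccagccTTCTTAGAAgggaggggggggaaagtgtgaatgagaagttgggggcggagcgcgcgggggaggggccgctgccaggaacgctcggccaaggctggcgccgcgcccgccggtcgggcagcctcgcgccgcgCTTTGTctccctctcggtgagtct
Stat3: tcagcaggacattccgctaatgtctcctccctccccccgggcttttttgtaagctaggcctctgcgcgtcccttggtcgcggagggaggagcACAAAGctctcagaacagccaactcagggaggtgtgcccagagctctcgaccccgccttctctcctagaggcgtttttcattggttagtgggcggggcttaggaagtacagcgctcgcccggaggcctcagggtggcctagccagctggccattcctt

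The other genes of the pathway were taken from 6 lists of 58 genes, of which 54 were on the array under these names and 52 were tested by their brightest probe set. In control medium 11 were higher and 12 lower in knockout cells, against 19% and 21.5% of all genes tested, with a median change of -0.07 (0.01 over all). With Wnt3a 6 were higher and 8 lower, against 12.4% and 13.9%, with a median of -0.01 (0.01 over all). Between media, 8 were higher and 11 lower with Wnt3a in knockout cells (median -0.03), against 13.4% and 14.9% of all, and 12 were higher and 13 lower in wild-type cells (median -0.04), against 18.7% and 22.4%.

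Among the ligands of the gp130 family, 5 of 7 were tested and 1 was lower in knockout cells in each medium. This was Lif itself. In control medium Lif read 6.07, 6.13 and 5.87 in knockout cells, against 7.25, 6.98 and 7.20 in wild-type cells, a change of -1.12 ± 0.15, or 2.18-fold lower (adjusted p = 1.03e-04). With Wnt3a it read 6.28, 5.84 and 5.75 in knockout cells, against 6.21, 6.63 and 6.66 in wild-type cells, which overlap, a change of -0.54 (adjusted p = 0.0214), lost without replicate 2 or 3 of either genotype (0.0691 to 0.0779). On its brightest probe set Lif was lower with Wnt3a by 0.64 in wild-type cells (adjusted p = 0.00490), and in knockout cells the change was -0.06 (adjusted p = 0.789). The other tested probe set of Lif lay near the floor and did not follow. It changed by 0.02 in control medium (adjusted p = 0.905) and by 0.01 with Wnt3a in wild-type cells (adjusted p = 0.926), and it was lower by 0.29 in knockout cells with Wnt3a, both against wild-type cells with Wnt3a (adjusted p = 0.0268) and against knockout controls (adjusted p = 0.0205). The mean of both probe sets gave -0.55 in control medium and -0.32 with Wnt3a in wild-type cells. The cells' own Lif transcript is measured here, not the Lif in the medium.

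The other ligands did not pass between genotypes in control medium, with changes of -0.17 for Il11, -0.16 for Ctf1, -0.06 for Clcf1 and 0.13 for Osm. Ctf1, which encodes cardiotrophin 1, fell with Wnt3a by 0.53 in knockout cells (adjusted p = 9.59e-04) and by 0.51 in wild-type cells (adjusted p = 6.41e-04). Il11 was lower with Wnt3a by 0.40 in wild-type cells (adjusted p = 0.00406), and its change in knockout cells was -0.15. With Wnt3a the mean of Il11 lay below the floor in wild-type (5.40) and knockout cells (5.48). The size of both Il11 changes thus rests on a signal near background. Of the 3 other receptor chains tested, none passed between genotypes in control medium. With Wnt3a, Il6ra was higher in knockout cells by 0.29 (adjusted p = 0.0357), a call lost without replicate 1 or 2 of the wild type or 2 or 3 of the knockout with Wnt3a, or replicate 3 of the wild-type controls (0.0523 to 0.141). Cntfr, the receptor of ciliary neurotrophic factor, fell with Wnt3a by 0.89 in knockout cells (adjusted p = 0.00152) and by 0.94 in wild-type cells (adjusted p = 5.99e-04).

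Of 8 other Jak kinases and Stat factors tested, in control medium 4 were higher and 1 was lower in knockout cells, against 19% and 21.5% of all genes. With Wnt3a 2 were higher and none lower, against 12.4% and 13.9%. Stat6, the factor of interleukin 4 signalling, read 10.27, 10.39 and 10.23 in knockout cells, against 9.18, 9.24 and 9.12 in wild-type cells, a change of 1.12 ± 0.10 (adjusted p = 5.23e-06). With Wnt3a its change was 0.88 (adjusted p = 9.54e-05). Jak2, a kinase that also serves gp130, was lower by 0.90 ± 0.15 in control medium (adjusted p = 4.38e-04), with 6.95, 7.17 and 7.14 in knockout cells against 8.37, 7.59 and 8.02 in wild-type cells. Tyk2, the remaining kinase used by gp130, was higher by 0.45 (adjusted p = 7.90e-04). With Wnt3a the difference was 0.27 (adjusted p = 0.0267), lost without replicate 1 or 2 of the wild type or 3 of the knockout (0.0645 to 0.0959), and for the mean of its probe sets (0.102). Stat2 rose with Wnt3a by 0.50 in knockout cells (adjusted p = 0.00207, or a change of 0.29 for the mean of its probe sets) and by 0.57 in wild-type cells (adjusted p = 5.27e-04). Jak3 fell by 0.57 with Wnt3a in knockout cells (adjusted p = 0.00260).

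Of 9 adaptors and phosphatases, 2 were higher and 1 was lower in control medium, against 19% and 21.5% of all genes. With Wnt3a 1 was higher and 1 lower, against 12.4% and 13.9%. Ptpn6, the phosphatase Shp1, was higher by 0.65 ± 0.06 in control medium (adjusted p = 7.00e-06) and by 0.36 with Wnt3a (adjusted p = 0.00131). Its other probe set was higher by 0.405 in control medium (adjusted p = 5.50e-04), but with Wnt3a its change of 0.175 did not pass (adjusted p = 0.0830). Ptpn11, the phosphatase Shp2 that links gp130 to the ERK pathway, was lower by 0.58 ± 0.08 (adjusted p = 9.49e-05, or a change of -0.17 and 0.0569 for the mean of its probe sets) and by 0.44 with Wnt3a (adjusted p = 0.00159, or a change of -0.28 for that mean). Grb2, an adaptor on the same branch, was higher by 0.37 in control medium (adjusted p = 0.00209). Gab1, a docking protein next to them, was higher with Wnt3a by 0.27 in knockout cells (adjusted p = 0.0131, or 0.0504 without replicate 2 of the knockout with Wnt3a; the change was 0.17 after repeated quantile normalization) and by 0.40 in wild-type cells (adjusted p = 8.25e-04).

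Of 10 other inhibitors, 2 were higher and 3 lower in control medium, against 19% and 21.5% of all genes. With Wnt3a 1 was higher and 1 lower, against 12.4% and 13.9%. Socs5 was lower by 0.66 ± 0.10 (adjusted p = 1.88e-04) and Socs6 by 0.46 (adjusted p = 0.00120), while Pias2, a SUMO ligase of the family that restrains Stat factors, was higher by 0.76 (adjusted p = 5.52e-04). Cish was lower by 0.27 (adjusted p = 0.0362), a call lost when any 1 of the 6 control-medium arrays was left out (0.0640 to 0.109). With Wnt3a, Pias3 was lower by 0.39 in knockout cells (adjusted p = 0.00281) and by 0.36 in wild-type cells (adjusted p = 0.00253). Pias2 was higher by 0.78 in wild-type cells (adjusted p = 5.44e-04, or 0.46 for the mean of its probe sets), and Socs5 was lower there by 0.62 (adjusted p = 3.70e-04).

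The list of Stat3 target genes moved in both directions. In control medium 3 of 17 tested were higher and 6 lower in knockout cells, against 19% and 21.5% of all genes tested, with a median change of -0.16. With Wnt3a 1 was higher and 5 lower, against 12.4% and 13.9%, with a median of -0.12. Tfcp2l1 and Klf4, transcription factors of naive pluripotency, were higher by 2.07 ± 0.11 (adjusted p = 2.38e-07) and 1.29 ± 0.11 (adjusted p = 2.55e-06). Of the 3 probe sets of Tfcp2l1 only 1 passed the filter, and the mean of all 3 gave 0.71. Pim2, the remaining Pim kinase gene, was lower by 1.68 ± 0.29 (adjusted p = 6.35e-04), with 9.55, 9.31 and 9.70 in knockout cells against 11.19, 11.09 and 11.31 in wild-type cells. With Wnt3a it was lower by 1.71 (adjusted p = 0.00126), with 8.66, 8.53 and 8.28 in knockout cells against 10.91, 10.34 and 9.33 in wild-type cells, where the wild-type arrays were widely spread. Cebpb, a transcription factor of acute-phase responses, was lower by 1.19 ± 0.10 in control medium (adjusted p = 3.84e-06) and by 1.03 with Wnt3a (adjusted p = 3.77e-05). Junb was lower by 0.71 (adjusted p = 0.00402) and 0.88 (adjusted p = 0.00204).

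The response to Wnt3a on this list also ran both ways. In knockout cells 4 of 17 rose and 5 fell, and in wild-type cells 5 rose and 4 fell, against the shares of all genes given above. In wild-type cells Tfcp2l1 rose by 1.75 (adjusted p = 6.05e-07) and Klf4 by 1.62 (adjusted p = 6.13e-07), and Cebpd fell by 1.43 (adjusted p = 2.09e-05). The means of all probe sets gave 0.74 for Tfcp2l1 and -0.79 for Cebpd, whose other, dimmer probe set changed by -0.15 (adjusted p = 0.143). In knockout cells the largest called changes were those of Pim2 (-1.03, adjusted p = 0.0177, lost without replicate 3 of the knockout in either medium, at 0.0662 and 0.0585), Junb (-0.99, adjusted p = 9.08e-04) and Cebpd (-0.64, adjusted p = 0.00737, or -0.39 for the mean of its probe sets).

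**Figure D5:**
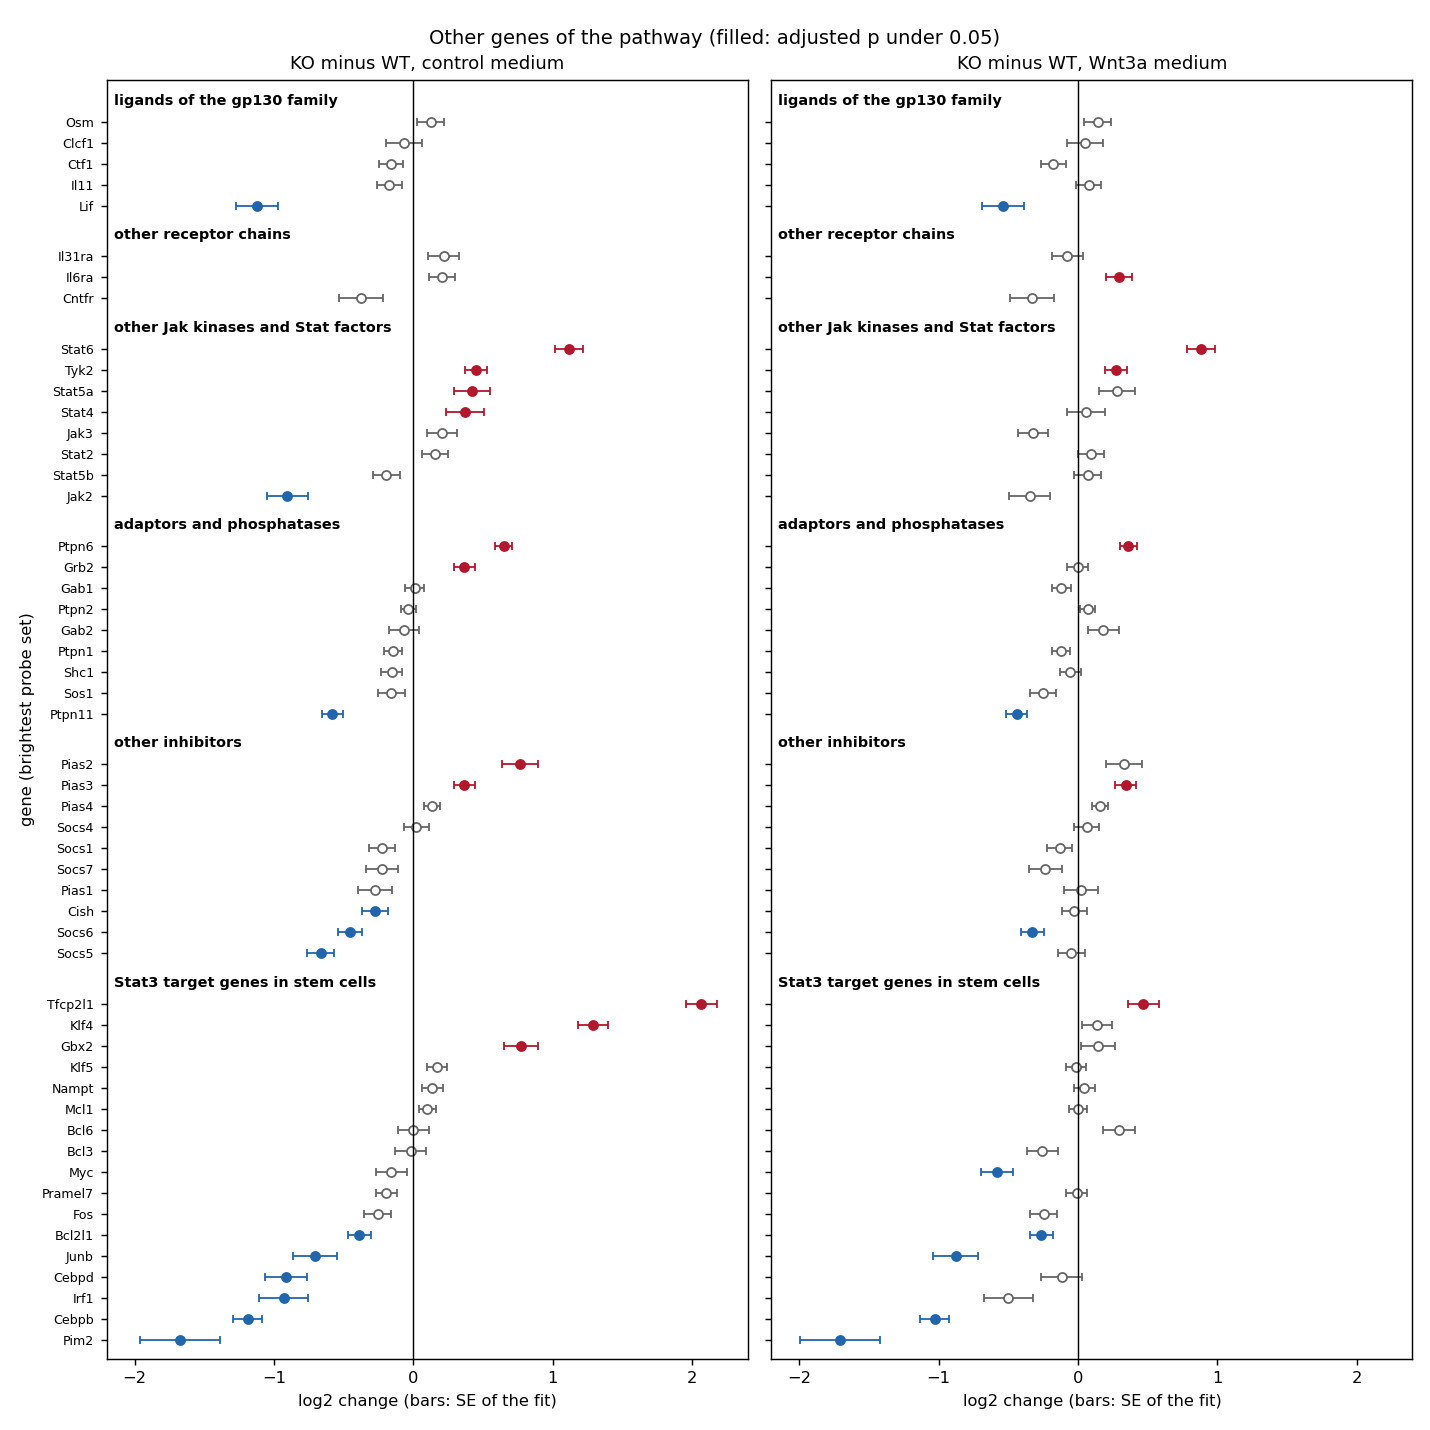
Knockout minus wild type on the log2 scale (horizontal axis) for the 52 tested genes of the 6 pathway lists (vertical axis, brightest probe set of each gene), in control medium (left) and with Wnt3a (right). Bars are the SE of the limma fit, red is higher and blue lower at an adjusted p under 0.05. Tfcp2l1 lies furthest to the right in control medium and Pim2 furthest to the left in both media.

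Across the 12 arrays some genes followed the members closely, which is given as a description, since all points share the same 4 groups and 13055 genes were compared. The closest to Lifr was Vill (r = 0.989), to Il6st Pan2 (0.944), to Jak1 Pitrm1 (0.982), to Stat3 Usp9y (0.945), to Socs2 Skor1 (0.978), to Socs3 Tmem256 (0.991), to Pim1 Pmp22 (0.990) and to Pim3 Celf4 (0.955). Among the members themselves Lifr and Pim1 ran opposite (r = -0.90) and Il6st and Socs3 together (r = 0.84).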

How the data were processed

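The authors deposited 1 table of intensities for 45101 probe sets on 12 arrays. The submitters' processing notes name RMA without a version, and nothing more on settings was found in the sources used here. The deposited intensities are linear, so log2 was taken, with no pseudocount. Control probe sets (64) were left out. The supplied platform annotation gave 1 symbol to 34945 probe sets and several to 932, and it does not list 9160. Probe sets were kept where 3 or more of the 12 arrays exceeded 5.56 (intensity 47.2), the 40th percentile of non-control values, which left 28483. limma 3.58.1 (R 4.3.3) fitted the 4 group means on all 12 arrays, with eBayes and a constant prior, and 5 comparisons were drawn from that fit. P-values were adjusted (Benjamini-Hochberg) over all probe sets tested. The fit was tested on simulated data. The precision is limited by 3 arrays per group, which correlated between 0.9925 and 0.9974 within groups.

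The members and gene lists were chosen with earlier results of these data known. All members were named. From each pathway list the rule named the 3 called genes with the largest change per comparison and every tested ligand. Part of these are printed, and Cish, Cebpb and Junb in control medium and Pias3 in wild-type cells were added after their values were seen. Promoters came from RefSeq (GRCm38.p6). Alternatives covered the filter, the scaling, the prior, the replicate block, the unit of the fit, the arrays in the fit and each array left out.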

Additional observations from a re-analysis of the deposited data

Results flagged for a closer look

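The Wnt3a response of Il6st probe set 4 differed between genotypes, by -0.8552 on the log2 scale (knockout minus wild type, adjusted p = 0.00932 in limma's test of the interaction). The response was 0.28 in knockout and 1.13 in wild-type cells.

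Of 17 genes tested on the list of Stat3 target genes, 2 had an interaction that passed, both negative. Over all the pathway lists 52 genes were tested, with 1 positive and 2 negative interactions called. Over all 13811 genes tested, 504 had a called interaction. For Klf4 the Wnt3a response was 0.47 in knockout and 1.62 in wild-type cells, an interaction of -1.1523 (adjusted p = 0.00388), and for Tfcp2l1 it was 0.15 and 1.75, an interaction of -1.5992 (adjusted p = 0.00115), or -0.49 (adjusted p = 0.0159) for the mean of all 3 Tfcp2l1 probe sets. In control medium Klf4 averaged 11.68 in knockout and 10.39 in wild-type cells, and Tfcp2l1 averaged 12.08 and 10.01.

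Among the other inhibitors, the Wnt3a response of Socs5 was -0.0014 in knockout cells (adjusted p = 0.993), and Socs5 fell by 0.62 in wild-type cells, an interaction of 0.6171 (adjusted p = 0.0329). It missed the threshold when any 1 of 10 arrays was left out, at 0.0538 to 0.0805, the exceptions being replicate 2 of the wild-type controls and replicate 1 of the wild type with Wnt3a.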

How the results depend on the processing

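Over the 135 results on single member probe sets and up to 22 alternatives each, 2753 values were recomputed. Of these, 2650 kept their side of the threshold, 66 lost and 36 gained it in the same direction, and 1 turned as it passed. Of the 2650, 2590 also kept their sign, and 60 changed sign while past the threshold in neither fit. The 1 was Pim3 probe set 1 with Wnt3a in wild-type cells, which became 0.2096 when all probe sets of the gene were averaged. Under the same averaging 2 called Wnt3a effects changed sign and no longer passed. Grb2 in wild-type cells went from 0.29 (adjusted p = 0.00781) to -0.0526 (0.523). Ptpn11 in knockout cells went from 0.24 (adjusted p = 0.0330) to -0.0161 (0.884). The 2 probe sets of Grb2 were called in opposite directions in wild-type cells, the other at -0.40 (adjusted p = 0.00505). Averaging mixes probe sets that differ, which is how this alternative is built.

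The number of member probe sets called in knockout against wild-type cells with Wnt3a was 11, and 7 to 12 with single arrays left out. The number of genes called for Wnt3a in knockout cells was 2, but 5 for the mean of all probe sets and 4 after repeated quantile normalization. For the interaction, probe sets called were 1, but 2 after repeated quantile normalization or with an intensity trend, and 1 to 2 with single arrays left out. Genes called there were 0, but 1 for the mean of all probe sets, after repeated quantile normalization or with an intensity trend, and 0 to 1 with single arrays left out. The cause was not tested. Fits with 1 value per gene give no count of probe sets. Centring each array on its median moved the share of higher calls among all calls from 48.1% to 64.1% for Wnt3a in knockout cells and from 49% to 63.2% in wild-type cells.

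Arrays with the same replicate number did not deviate together (correlations -0.254 to 0.235), so the number is not taken to pair them. With it as a replicate block, calls over all probe sets were 9870, 6325, 8227, 11638 and 732, against 10308, 6833, 8795, 12116 and 1021 without it, for the knockout effect in control medium and with Wnt3a, the Wnt3a effect in knockout and wild-type cells, and the interaction. Under the block the knockout call of Stat3 probe set 2 with Wnt3a was lost (adjusted p = 0.0557), as was that of Il6ra (adjusted p = 0.0599), and no other call on a member probe set changed. Over the 52 tested genes of the pathway lists 5 calls were lost and 0 gained, the other 4 being Stat4 between genotypes in control medium (0.0725), Ptpn2 and Ptpn6 with Wnt3a in wild-type cells (0.0545 and 0.0518) and Bcl6 with Wnt3a in knockout cells (0.0672). The other alternatives were run for 29 of these genes. Without detection calls, only the floor separates signal from background here.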
